A study of Mus musculus with 18 samples.

Results

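The folate and one-carbon metabolism genes described here are *Aldh1l1*, whose promoter drives the ribosome tag of these cultures, and 8 further genes of the folate cycle, *Aldh1l2*, *Mthfd1*, *Mthfd1l*, *Mthfd2*, *Mthfd2l*, *Shmt1*, *Shmt2* and *Mtr*. They were picked by name, not by their values, from the 51912 genes counted, though with earlier results of these data known. All 9 passed the filter, a sum of 10 or more read pairs in the 18 libraries, and belong to the 24495 genes tested. The cultures were primary cortical astrocytes of hemizygous Aldh1l1-EGFP/Rpl10a mice, from crosses of the hemizygous B6;FVB stock (transgene JD130Htz) with C57BL/6J. In their astrocytes the ribosomal protein RPL10A is tagged with EGFP. Equal numbers of male and female cortices of postnatal day 0 went into the cultures, which grew for 14 days, were replated and grew for another 6 days. All dishes then spent 24 h without serum, followed by 24 h in serum-free medium that held 50 mM ethanol (ethanol group) or none (control group). With translating ribosome affinity purification (TRAP), the tagged ribosomes and their bound mRNA were pulled down from the lysate as the IP fraction, and an aliquot of the same lysate, taken before the pull-down, was the input fraction. There were 6 IP control, 6 IP ethanol, 3 input control and 3 input ethanol libraries, and the input libraries came from the dishes of IP replicates 4, 5 and 6. The tag is made only where the *Aldh1l1* promoter is active, while the input holds RNA of every cell in the dish.

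Folate carries one-carbon units that cells take from serine and glycine and spend on thymidylate, purines and methionine. The pathway exists in parallel in the cytosol and in mitochondria. In the cytosol, SHMT1 moves a one-carbon unit from serine to tetrahydrofolate, the trifunctional MTHFD1 interconverts the folate forms, ALDH1L1 oxidises 10-formyl-tetrahydrofolate to carbon dioxide and so releases the unit, and MTR uses 5-methyl-tetrahydrofolate to make methionine from homocysteine. In mitochondria, SHMT2 loads the unit, MTHFD2 or MTHFD2L oxidises it, MTHFD1L releases it as formate for use in the cytosol, and ALDH1L2 is the counterpart of ALDH1L1. In the brain ALDH1L1 is abundant in astrocytes, which is why its promoter serves as an astrocyte driver, whereas MTHFD2 is known for high expression in embryonic and dividing cells.

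The libraries held 74239854 to 132810705 read pairs counted on genes. Levels are given as CPM, read counts scaled to library size by TMM factors, and fold changes on the log2 scale with the standard error (SE) from edgeR's quasi-likelihood test. A gene is called where its p-value adjusted by Benjamini and Hochberg over all 24495 genes is below 0.05. Replicates are dishes, and p-values measure the spread between dishes, which may share starting cortices. All 10 astrocyte markers were present in every library and summed to 1393 to 1450 CPM in input control, 1447 to 1484 CPM in input ethanol, 2061 to 2160 CPM in IP control and 2169 to 2246 CPM in IP ethanol. Of the markers of other cells, the 8 of microglia summed to 70.6 to 85.3 CPM in input and 12.3 to 16.2 CPM in IP, and the 5 of fibroblasts to 216 to 222 CPM in input and 99.9 to 118 CPM in IP. The 8 endothelial and mural markers, mostly through the contractile gene *Acta2*, summed to 1301 to 1371 CPM in input control, 900.2 to 968 CPM in input ethanol, 1630 to 1763 CPM in IP control and 1054 to 1250 CPM in IP ethanol. Of the genes that mark endothelium, *Cldn5* was at 0 in every library, while *Flt1* (5.18 to 7.18 CPM), *Kdr* (1.97 to 5.57 CPM), *Pecam1* (0.22 to 0.458 CPM) and *Cdh5* (0.0394 to 0.445 CPM) were above 0 in all 18. The 8 neuronal markers summed to 81.3 to 88.7 CPM in input and 112 to 129 CPM in IP, mostly through *Map2* (56.9 to 97.1 CPM) and *Tubb3* (12.6 to 21.7 CPM), with *Snap25* at 0 in some libraries. The 8 of the oligodendrocyte lineage, mostly through *Olig2* (29.7 to 51.5 CPM) and *Cspg4* (9.74 to 27.1 CPM), summed to 46.8 to 50.5 CPM in input control, 50.9 to 53.8 CPM in input ethanol, 68.5 to 78.8 CPM in IP control and 76.3 to 80.6 CPM in IP ethanol, with *Sox10* and *Mog* at 0 in some libraries. In these bulk samples, fewer cells of a type and less RNA per cell cannot be told apart.

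The promoters shown are RefSeq windows of *Aldh1l1*, the gene whose promoter drives the tag, and of *Mthfd1*, *Shmt1* and *Mtr*, the 3 genes that were called lower with ethanol in both fractions. RefSeq promoters of GRCm38.p6, from 250 bases before to 50 bases after the start site, were at hand for 8 of the 9 genes and not for *Aldh1l2*. They are read 5′ to 3′ on the strand of the gene, at chr6:90550543-90550842 on the plus strand for *Aldh1l1*, chr12:76254982-76255281 on the plus strand for *Mthfd1*, chr11:60811216-60811515 on the minus strand for *Shmt1* and chr13:12258064-12258363 on the minus strand for *Mtr*. The *Aldh1l1* window lies inside the annotated gene (90486427 to 90600203) and not at its outermost start. The same holds for the *Mthfd2* window, at 83317555 to 83317854 in a minus-strand gene that spans 83305691 to 83325908. Whether the *Aldh1l1* window is the sequence that drives the tag was not tested. Capitals mark CCAAT boxes (CCAAT, or ATTGG where the box lies on the other strand) and GC boxes (GGGCGG, or CCGCCC on the other strand).
Aldh1l1: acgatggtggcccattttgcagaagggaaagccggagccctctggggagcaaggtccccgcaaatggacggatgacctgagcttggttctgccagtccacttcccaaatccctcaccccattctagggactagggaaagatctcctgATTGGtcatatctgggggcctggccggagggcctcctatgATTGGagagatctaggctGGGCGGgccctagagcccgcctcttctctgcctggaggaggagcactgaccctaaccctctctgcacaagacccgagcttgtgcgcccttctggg
Mthfd1: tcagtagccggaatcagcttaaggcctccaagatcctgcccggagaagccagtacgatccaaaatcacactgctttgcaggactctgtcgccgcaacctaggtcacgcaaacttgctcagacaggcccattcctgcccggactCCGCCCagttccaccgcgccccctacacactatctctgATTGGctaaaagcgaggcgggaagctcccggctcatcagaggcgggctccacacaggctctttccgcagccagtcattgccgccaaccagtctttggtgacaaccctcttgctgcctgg
Shmt1: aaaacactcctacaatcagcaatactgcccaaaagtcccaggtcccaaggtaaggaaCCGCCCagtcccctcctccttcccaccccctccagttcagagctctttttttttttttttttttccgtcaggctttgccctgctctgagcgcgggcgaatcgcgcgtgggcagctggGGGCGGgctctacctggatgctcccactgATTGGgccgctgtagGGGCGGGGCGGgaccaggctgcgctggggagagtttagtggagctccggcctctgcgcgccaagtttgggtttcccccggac
Mtr: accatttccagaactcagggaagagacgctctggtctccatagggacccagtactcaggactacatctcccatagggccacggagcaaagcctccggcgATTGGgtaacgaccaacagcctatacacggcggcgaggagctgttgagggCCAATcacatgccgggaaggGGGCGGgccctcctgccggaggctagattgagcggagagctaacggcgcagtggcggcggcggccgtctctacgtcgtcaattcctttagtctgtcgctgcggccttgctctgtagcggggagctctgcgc
The *Aldh1l1* and *Mtr* windows each held 2 CCAAT boxes and 1 GC box, the *Mthfd1* window 1 of each, and the *Shmt1* window 1 CCAAT box and 4 GC boxes. *Mthfd2* held 3 CCAAT boxes and no GC box, *Mthfd1l* and *Mthfd2l* each 1 GC box and no CCAAT box, and *Shmt2* neither. Of all 32851 promoters of this length, 37.4% held CCAAT and 35.7% GGGCGG on either strand. Both motifs were chosen after the sequences had been seen. The E-box CACGTG and the Atf4 and C/EBP composite element TGATGNAA, held on either strand by 7.15% and 3.97% of all promoters, were in none of the 8 windows, which says only that these letters are not in these 300 bases. The GC content of the windows ran from 42.7% in *Shmt2* to 62.7% in *Mthfd2l*.

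Several of the 9 genes share exon bases with a neighbour, and reads there are set aside by an unstranded count. *Aldh1l1* (ENSMUSG00000030088, chr6:90486427-90600203, plus strand, GRCm38) shares 499 exon bases, 11% of its own, with the antisense gene Gm15756. *Aldh1l2* (ENSMUSG00000020256, chr10:83487450-83534140, minus strand) shares 1056 bases, 14.1%, with the convergent gene D10Wsu102e. *Shmt1* (ENSMUSG00000020534, chr11:60788104-60811718, minus strand) overlaps the convergent *Smcr8* by 184 bases at its 3′ end. The libraries were stranded, and in *Shmt1* 23.5% to 33.3% of the read pairs assigned by strand lay on the opposite strand, against at most 5.29% in the other 8 genes. For *Shmt1* the fold changes of the annotated strand are therefore given beside the unstranded ones. The sums over genes given here rest on unstranded counts. The remaining genes are *Mthfd1* (chr12:76255298-76319803, plus strand), *Mthfd1l* (chr10:3973118-4167081, plus strand), *Mthfd2* (chr6:83305691-83325908, minus strand), *Mthfd2l* (chr5:90931117-91021368, plus strand), *Shmt2* (chr10:127517123-127522444, minus strand) and *Mtr* (chr13:12182712-12258113, minus strand).

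Per length, *Aldh1l1* had the highest level of the 9 genes in every library and *Aldh1l2*, its mitochondrial counterpart, the lowest. In the IP control libraries *Aldh1l1* reached 84.8 ± 2.15 CPM per kb of merged exons (SD, n = 6), 2.52 times *Mthfd1* at 33.7 ± 0.386. *Shmt2* followed at 12.3 ± 0.422, then *Mtr* at 4.44 ± 0.141 and *Mthfd2* at 3.43 ± 0.259. *Shmt1* at 2.56 ± 0.139 and *Mthfd1l* at 2.49 ± 0.135 overlapped and did not differ beyond their spread, and *Mthfd2l* at 0.977 ± 0.0867 and *Aldh1l2* at 0.453 ± 0.0319 came last. Apart from that pair, neighbours in the order did not overlap in any of the 4 groups. In input the order was the same except that *Mthfd2*, at 4.25 ± 0.0521 in input control (SD, n = 3), stood above *Mtr* at 3.53 ± 0.0132. With the length of the longest transcript *Mthfd2* stood above *Mtr* in the mean of all libraries, and with counts of the annotated strand *Mthfd1l* stood above *Shmt1*.

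**Figure D1:**
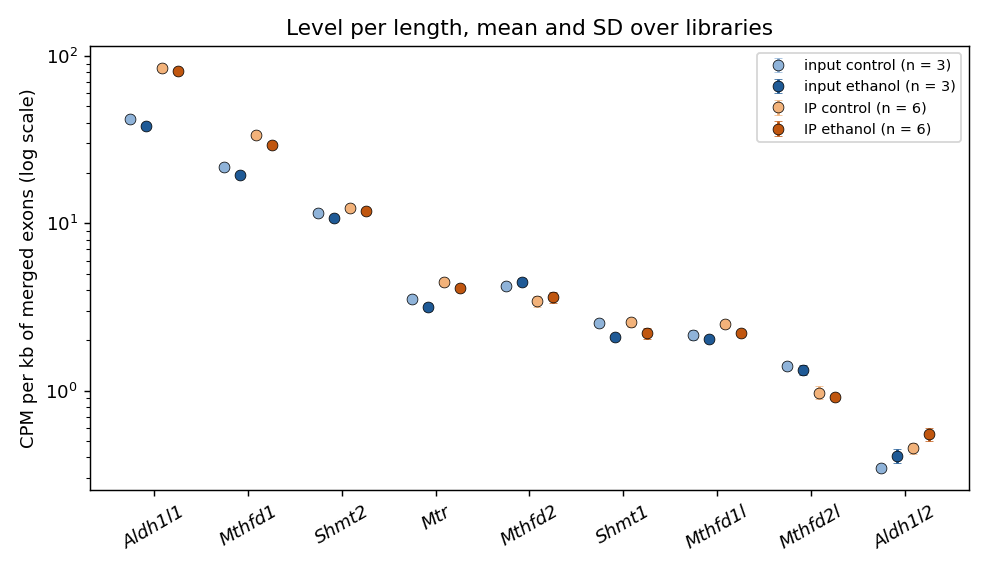
Level of each gene per length, as TMM-scaled CPM per kb of merged exons on a log axis, with points for the mean and bars for the SD over the 3 or 6 libraries of a group (bars smaller than the point are hidden). *Aldh1l1* lies between 38.4 and 84.8 and *Aldh1l2* between 0.348 and 0.552.

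Between the enzymes that share a step, 1 gene held most of the message. *Aldh1l1* made up 99.5% ± 0.0461 (SD, n = 6) of the summed per-length level of *Aldh1l1* and *Aldh1l2* in IP control, and *Mthfd1* 93.1% ± 0.375 of that of *Mthfd1* and *Mthfd1l*. *Mthfd2* made up 77.8% ± 1.36 of the *Mthfd2* and *Mthfd2l* sum. For serine hydroxymethyltransferase the mitochondrial gene was the larger one, since *Shmt1* held only 17.2% ± 0.578 of the *Shmt1* and *Shmt2* sum in IP control. With ethanol the *Shmt1* share was 15.6% ± 0.842 in IP (range 14.4% to 16.4%, against 16.4% to 17.97% in control) and 16.2% ± 0.391 in input (n = 3), against 18.1% ± 0.621 in input control. The input groups did not overlap, and the IP groups overlapped only by a narrow margin. Those shares rest on unstranded counts. With counts of the annotated strand the *Shmt1* share was 15.6% ± 0.51 in IP control and 13.4% ± 0.822 in IP ethanol (SD, n = 6 each), and 16.6% ± 0.424 in input control and 14.7% ± 0.581 in input ethanol (n = 3 each), and neither fraction showed overlap.

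**Figure D2:**
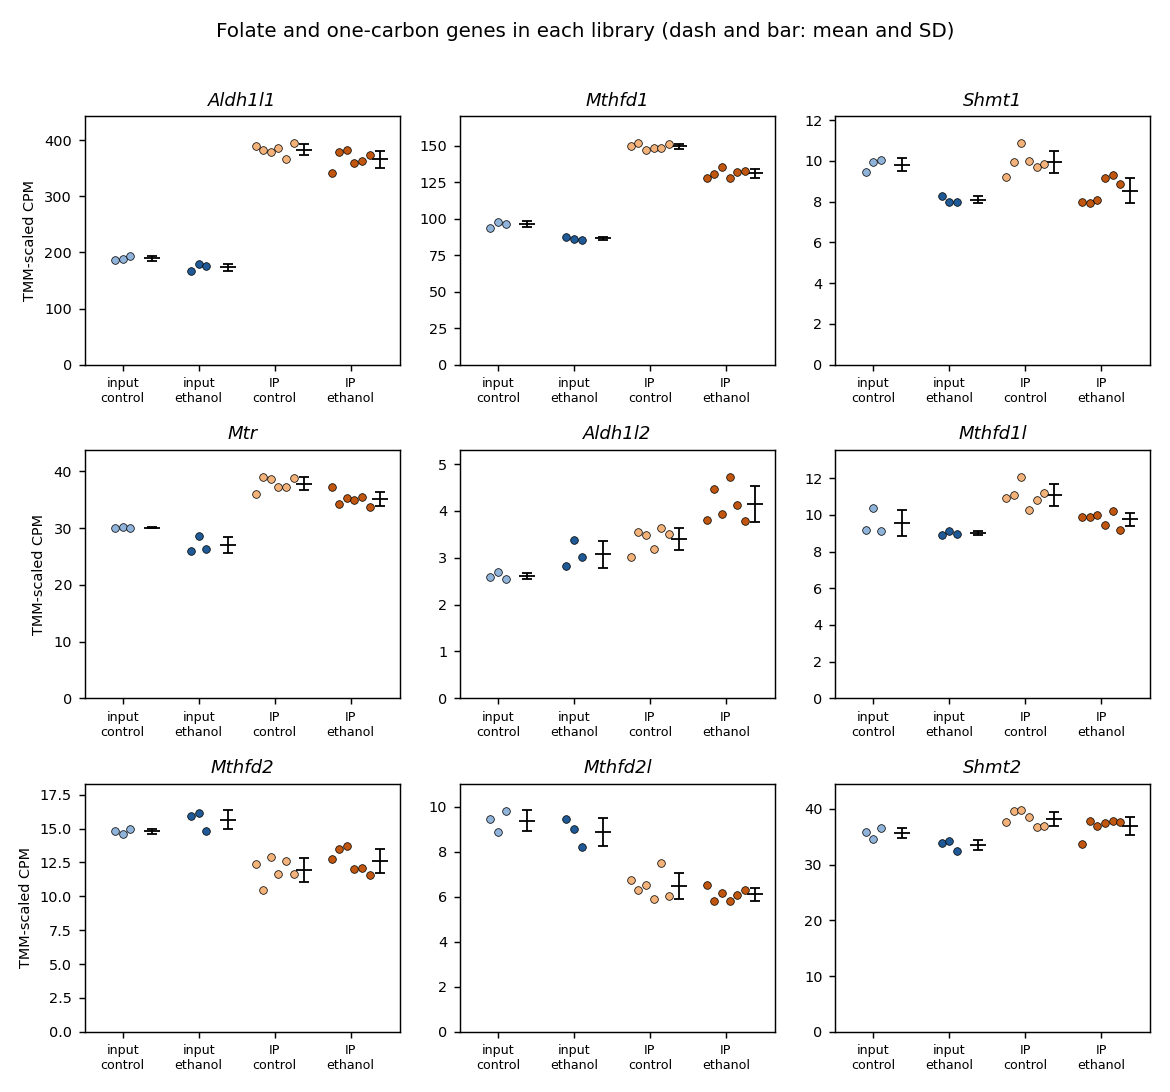
TMM-scaled CPM of the 9 genes in each of the 18 libraries, with a point per library and a dash and bar for the mean and SD of each group. Every axis starts at 0. The IP libraries of *Aldh1l1* (342 to 395 CPM) all lie above its input libraries (166.2 to 193.5 CPM), and those of *Mthfd2l* (5.79 to 7.495 CPM) all lie below (8.23 to 9.79 CPM).

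The comparison of IP with input asks which messages are over- or under-represented on tagged ribosomes relative to the whole lysate. Of the 9 genes, 6 were higher in IP (*Aldh1l1*, *Mthfd1*, *Aldh1l2*, *Mtr*, *Mthfd1l* and *Shmt2*), 2 were lower (*Mthfd2* and *Mthfd2l*) and *Shmt1* was not called. Over all genes tested, 51% were called, 25.2% higher and 25.8% lower in IP. The median log2 fold change of the 9 genes was 0.16, against -0.03 over all genes. In 5 of the 9 genes the 12 IP and 6 input libraries did not overlap, which was so for 25% of all genes. Of the 10 astrocyte markers, 8 were called higher in IP and 1 lower, with a median of 0.57. The part of cell types in the differences of the 9 genes was not tested.

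Among the cytosolic genes, *Aldh1l1* showed the largest difference. In input control it stood at 186, 188 and 193.5 CPM, in input ethanol at 166.2, 178.6 and 175.5 CPM, and in IP at 342 CPM in the lowest, 378.5 CPM in the median and 395 CPM in the highest of 12 libraries. The lowest IP library thus lay above the highest input library, and the difference was 1.05 (SE 0.0216, adjusted p = 5.45e-51), a 2.07-fold higher level in IP. The IP to input ratio within single dishes was 1.04 ± 0.0523 on the log2 scale (SD, n = 6 dishes) and ran from 0.96 to 1.11. Whether reads of the transgene, which holds *Aldh1l1* regulatory sequence, were counted on the gene was not tested.

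*Mthfd1*, the trifunctional cytosolic enzyme, came next. Its input control libraries held 93.9, 97.9 and 96.7 CPM, its input ethanol libraries 87.9, 86.2 and 85.7 CPM, and the IP libraries 128 to 152.03 CPM with a median of 142. All IP libraries lay above all input libraries, with a log2 difference of 0.62 (SE 0.0198, adjusted p = 3.25e-40). *Mtr*, methionine synthase, held 33.7 to 39.1 CPM in IP (median 36.6) and 26.0 to 30.2 CPM in input (median 29.3). Its groups did not overlap either, and the log2 fold change was 0.36 (SE 0.0273, adjusted p = 3.85e-19).

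*Shmt1* was the cytosolic gene without a call. It held 7.93 to 10.9 CPM in IP (median 9.25) and 7.98 to 10.02 CPM in input (median 8.87), so the groups overlapped across their whole range. The log2 fold change was 0.05 (adjusted p = 0.379), and with counts of the annotated strand -0.01. IP was higher than input in 4 of 6 dishes.

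The mitochondrial genes moved in both directions. *Aldh1l2*, which rests on 225 to 623 read pairs per library, held 3.02 to 4.73 CPM in IP (median 3.70) and 2.55 to 3.38 CPM in input (median 2.76). The groups overlapped, with a log2 difference of 0.41 (SE 0.0663, adjusted p = 1.9e-07), and IP was higher in 6 of 6 dishes. *Mthfd1l*, which makes formate, stood at 10.4 ± 0.827 CPM in IP (SD, n = 12) and 9.28 ± 0.538 CPM in input (n = 6), with overlapping groups and a difference of 0.16 (SE 0.0412, adjusted p = 0.00049). *Shmt2* showed 37.5 ± 1.56 CPM in IP and 34.6 ± 1.45 CPM in input, which also overlapped, with a difference of 0.12 (SE 0.0268, adjusted p = 0.000104). Both *Mthfd1l* and *Shmt2* were higher in IP in 6 of 6 dishes, by as little as 0.03 and 0.01 in a single dish. When tested against a fold change of 1.2 instead of no change, *Mthfd1l*, *Shmt2* and *Mthfd2* were no longer called.

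*Mthfd2* and *Mthfd2l*, the dehydrogenases of mitochondrial one-carbon oxidation, were the 2 genes lower in IP. *Mthfd2* held 14.8, 14.6 and 14.97 CPM in input control, 15.9, 16.2 and 14.8 CPM in input ethanol, and 10.4 to 13.7 CPM in IP with a median of 12.3. All IP libraries lay below all input libraries, and the log2 fold change was -0.31 (SE 0.0388, adjusted p = 1.03e-10). *Mthfd2l* held 9.47, 8.86 and 9.79 CPM in input control, 9.44, 8.98 and 8.23 CPM in input ethanol, and 5.79 to 7.495 CPM in IP with a median of 6.22. It did not overlap either, with a log2 difference of -0.54 (SE 0.0469, adjusted p = 1.38e-16). IP was below input in each of the 6 dishes for both genes. The microglial and fibroblast markers were lower in IP as well, as given above (7 of 8 and 4 of 5 markers called lower), and their part in these differences was not tested.

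**Figure D3:**
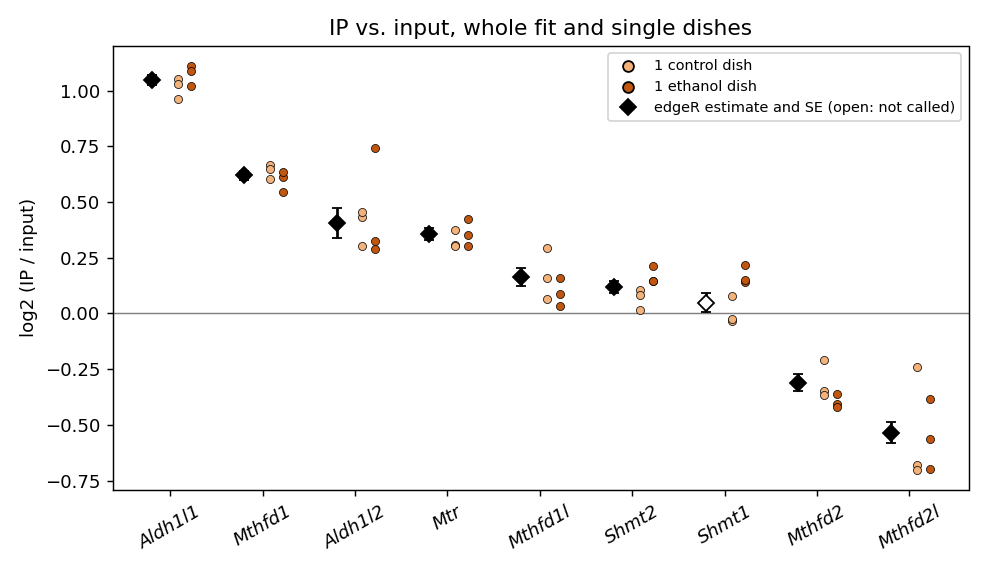
Log2 ratio of IP to input for the 9 genes, ordered by the estimate. Diamonds with bars are the edgeR estimate and its SE over 18 libraries, open where not called, and circles are the ratios of the 3 control and 3 ethanol dishes that had both libraries. The estimates run from 1.05 for *Aldh1l1* to -0.54 for *Mthfd2l*.

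Summed per length, the 4 cytosolic genes (*Aldh1l1*, *Mthfd1*, *Shmt1* and *Mtr*) stood at 69.6 ± 1.19 CPM per kb in input control (SD, n = 3) and at 125.5 ± 2.36 in IP control (n = 6). Without *Aldh1l1* the sum of the other 3 was 27.7 ± 0.537 in input control and 40.7 ± 0.438 in IP control. The 5 mitochondrial genes summed to 19.6 ± 0.287 in input control and 19.6 ± 0.538 in IP control. The cytosolic sums of input and IP lay far apart, while the mitochondrial ranges, 19.4 to 19.9 in input control and 19.1 to 20.7 in IP control, overlapped.

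The comparison of ethanol with control asks how 24 h of 50 mM ethanol altered these messages, on tagged ribosomes and in the whole lysate. In IP, *Aldh1l2* was upregulated and *Mthfd1*, *Mthfd1l*, *Shmt1* and *Mtr* were downregulated by ethanol, while *Aldh1l1*, *Mthfd2*, *Mthfd2l* and *Shmt2* were not called. Over all genes, 21.4% were called in IP, 11.9% higher and 9.48% lower. In input, *Aldh1l1*, *Mthfd1*, *Shmt1* and *Mtr*, the 4 cytosolic genes, were downregulated and none of the 5 mitochondrial genes was called. Over all genes, 15% were called in input, 7.21% higher and 7.78% lower. The median log2 fold change of the 9 genes was -0.08 in IP and -0.09 in input, against 0.01 and 0.00 over all genes. Control and ethanol groups did not overlap for 3 of the 9 genes in IP (9.96% of all genes) and for 7 of the 9 in input (27.1% of all genes, with only 3 against 3 libraries). The differences were small. When tested against a fold change of 1.2, none of the 9 genes was called in either fraction.

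*Mthfd1* had the ethanol difference with the smallest p-value in both fractions. In IP it held 147.5 to 152.03 CPM in control (median 149.5) and 128 to 136 CPM in ethanol (median 131). The 2 groups were 11.7 CPM apart at their nearest libraries, and the log2 fold change was -0.18 (SE 0.0237, adjusted p = 1.04e-08). In input, where the values of each library stand above, every ethanol library lay below every control library, with a change of -0.16 (SE 0.0268, adjusted p = 3.1e-07).

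*Shmt1* fell by 0.21 in IP (SE 0.0513, adjusted p = 0.00134) and by 0.28 in input (SE 0.0712, adjusted p = 0.0011). Its input control libraries held 9.447, 9.95 and 10.02 CPM and its input ethanol libraries 8.29, 7.98 and 7.99 CPM, without overlap. In IP the control libraries held 9.22 to 10.9 CPM (median 9.91), and ethanol replicates 1, 2 and 3 held 7.96, 7.93 and 8.06 CPM, below all of them. Ethanol replicates 4, 5 and 6, at 9.15, 9.28 and 8.85 CPM, stood higher, and replicate 5 lay above the lowest control library. With IP replicates 4 to 6 alone, *Shmt1* was no longer called (-0.11, adjusted p = 0.306). On the annotated strand *Shmt1* held 8.54 ± 0.338 CPM in IP control and 6.895 ± 0.537 CPM in IP ethanol (SD, n = 6 each), which did not overlap, and the fall was larger, by 0.31 in IP (adjusted p = 7.9e-06) and by 0.30 in input (adjusted p = 0.000829).

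*Mtr* was lower by a smaller amount. In IP it held 36.05 to 39.1 CPM in control (median 38.0) and 33.7 to 37.2 CPM in ethanol (median 35.1), and replicate 1 of each group lay inside the range of the other. The change was -0.10 (SE 0.0315, adjusted p = 0.0154), and with replicates 1 to 3 alone -0.09 (adjusted p = 0.256), no longer called. In input *Mtr* held 30.1, 30.2 and 29.95 CPM in control and 26.0, 28.7 and 26.4 CPM in ethanol, without overlap, and the change was -0.16 (SE 0.0418, adjusted p = 0.00199).

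*Aldh1l1*, the gene whose promoter drives the tag, was lower with ethanol in input by 0.13 (SE 0.0233, adjusted p = 9.38e-07), and its 3 ethanol libraries lay below its 3 control libraries. In IP it held 367 to 395 CPM in control (median 384) and 342 to 383 CPM in ethanol (median 368), with overlapping groups. The change in IP was -0.06 (SE 0.0246, adjusted p = 0.0934) and lay close to the threshold. It passed with 8 of 23 other settings, among them the DESeq2 size factors (-0.07, adjusted p = 0.0476), a filter of 1 CPM in 3 libraries (adjusted p = 0.0314), counts of the annotated strand (adjusted p = 0.0456), removal of GC content and length trends (-0.09, adjusted p = 0.000349), the replicate number as a block (adjusted p = 0.0381), and without IP control replicate 5 (adjusted p = 0.0401), IP ethanol replicate 2 (adjusted p = 0.0365) or IP ethanol replicate 3 (adjusted p = 0.0145). Without IP ethanol replicate 1, the library with the lowest level, it was -0.04 (adjusted p = 0.305).

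Of the mitochondrial genes, *Aldh1l2* was the only one of the 9 called higher. In IP its control libraries held 3.02 to 3.64 CPM (median 3.49) and its ethanol libraries 3.77 to 4.73 CPM (median 4.03). The groups did not overlap, and the change was 0.30 (SE 0.0727, adjusted p = 0.00128), a 1.23-fold higher level. In input the libraries held 2.59, 2.69 and 2.55 CPM in control and 2.83, 3.38 and 3.01 CPM in ethanol, again without overlap and on 225 to 292 read pairs per library, and the change of 0.23 was not called (adjusted p = 0.221). In IP the call was lost with replicates 1 to 3 alone (0.28, adjusted p = 0.0714).

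*Mthfd1l* fell by 0.17 in IP (SE 0.047, adjusted p = 0.00414), from 10.3 to 12.1 CPM in control (median 11) to 9.19 to 10.2 CPM in ethanol (median 9.88). The groups did not overlap but came within 0.06 CPM of each other. With replicates 4 to 6 alone the fall was 0.16 and no longer called (adjusted p = 0.0896). In input the libraries held 9.18, 10.36 and 9.14 CPM in control and 8.91, 9.12 and 8.98 CPM in ethanol, a change of -0.09 that was not called (adjusted p = 0.465) and was -0.03 without input control replicate 5.

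The core mitochondrial enzymes were not called. *Shmt2* stood at 38.2 ± 1.31 CPM in IP control and 36.9 ± 1.61 CPM in IP ethanol (SD, n = 6 each), a change of -0.04 (adjusted p = 0.399), and its change in input was -0.09 (adjusted p = 0.0887), where the groups did not overlap. *Mthfd2* stood at 11.95 ± 0.903 CPM in IP control and 12.6 ± 0.872 CPM in IP ethanol, a change of 0.08 (adjusted p = 0.244), with 0.08 in input (adjusted p = 0.442). *Mthfd2l* stood at 6.49 ± 0.576 CPM in IP control and 6.11 ± 0.283 CPM in IP ethanol, a change of -0.08 (adjusted p = 0.395), with -0.08 in input (adjusted p = 0.559). In these genes the groups of IP overlapped.

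**Figure D4:**
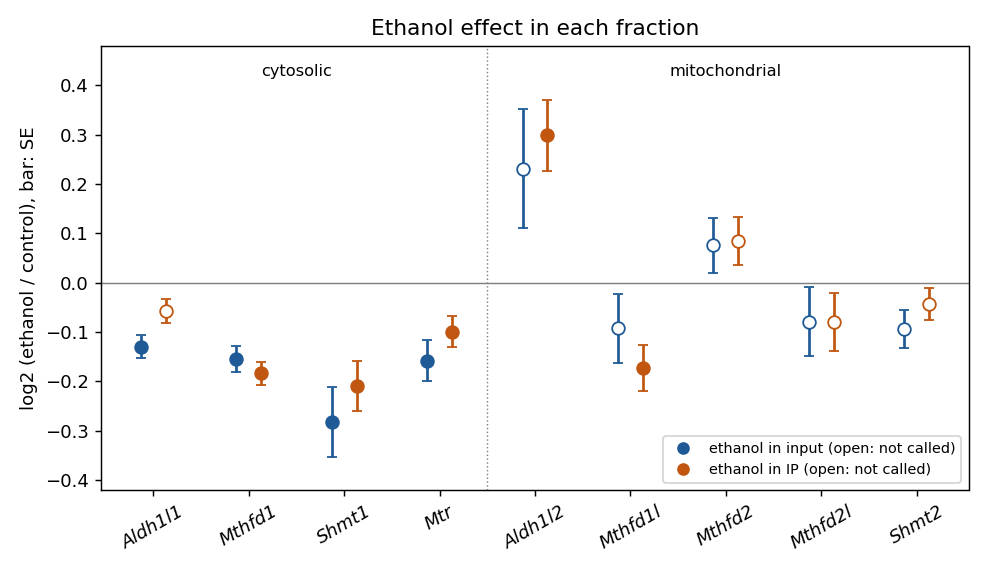
Log2 fold change of ethanol against control with its SE (edgeR) for the 4 cytosolic and 5 mitochondrial genes in input (3 against 3 libraries) and IP (6 against 6). Filled points were called. The cytosolic points lie between -0.28 and -0.06, and *Aldh1l2* lies at 0.23 and 0.30.

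The sum of the 3 cytosolic genes other than *Aldh1l1* was 40.7 ± 0.438 CPM per kb in IP control and 35.9 ± 0.629 in IP ethanol, with ranges of 40.4 to 41.4 and 35.2 to 36.8. In input the same sum was 27.7 ± 0.537 in control and 24.7 ± 0.269 in ethanol. Neither fraction showed overlap in that sum, of which *Mthfd1* made up 33.7 of the 40.7 in IP control. With *Aldh1l1* added, the IP sum was 125.5 ± 2.36 in control and 117 ± 3.8 in ethanol. The ranges, 121.6 to 128.7 and 110.9 to 121.6, met after rounding. In input the 4 genes summed to 69.6 ± 1.19 in control and 63.15 ± 1.3 in ethanol, without overlap. The mitochondrial sum was 19.6 ± 0.538 in IP control and 19.2 ± 0.549 in IP ethanol, and 19.6 ± 0.287 and 19.0 ± 0.595 in input, with overlap in both. *Shmt2* made up 12.3 of the 19.6 in IP control. Of the 10 astrocyte markers, *Aqp4* (0.25 in IP, 0.16 in input), *Slc1a3* (0.23 and 0.16), *Slc1a2* (0.19 and 0.17) and *Sox9* (0.14 and 0.07) were called higher with ethanol in both fractions, *Glul* (-0.06 and -0.07) was called lower in both, and *Gfap* (-0.07) and *Aldoc* (-0.10) were called lower in input. Of the endothelial and mural markers, *Acta2* (-0.56 in IP, -0.59 in input) and *Kdr* (-0.40 and -0.51) were called lower in both fractions. Of the other markers, *Pdgfra* (0.47 in IP, 0.56 in input) and *Cspg4* (0.29 and 0.23) of the oligodendrocyte lineage and the microglial *Csf1r* (0.33 and 0.22) were called higher in both, and *Mbp* (0.30), *Map2* (0.12) and *Slc17a7* (0.98) in input. The level of *Slc17a7* was near the floor, with 19 to 28 read pairs per library in input control (mean 0.258 CPM) and 36 to 47 in input ethanol (mean 0.51 CPM). The part of these markers in the differences of the 9 genes was not tested.

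A gene called in 1 fraction and not in the other need not respond differently in the 2. The ethanol effect in IP minus that in input, tested as an interaction over 18 libraries, ranged from -0.09 for *Mthfd1l* (SE 0.0818) to 0.06 for *Aldh1l1* (SE 0.0406), and none of the 9 differences was called by edgeR (lowest adjusted p = 0.869, lowest unadjusted p = 0.133). Leaving out 1 library moved *Mthfd1l* as far as -0.155 (without input control replicate 5) and *Aldh1l1* as far as 0.03 (without input ethanol replicate 4). Over all genes 0% were called by edgeR, with 1459 genes at an unadjusted p below 0.05, and DESeq2 called 4. *Aldh1l2* moved between -0.01 (without input ethanol replicate 4) and 0.13 (without input ethanol replicate 5). With the dish as a block, over 12 libraries, 102 genes were called and none of the 9. In that fit the difference was 0.18 for *Shmt1* and 0.12 for *Shmt2*, beyond the range given above.

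The other genes of one-carbon metabolism were followed in 8 lists with 49 genes, of which 46 were tested and *Mat1a*, *Bhmt* and *Bhmt2* had at most 7 read pairs in all. In IP vs. input, 24 were higher and 6 lower, with a median of 0.14 against -0.03 over all genes. Among all genes tested, 25.2% were called higher and 25.8% lower. The glycine cleavage system, which splits glycine in mitochondria and loads its carbon on folate, had 3 of 4 genes higher, led by the decarboxylase *Gldc* at 0.62 (SE 0.0193) and the aminomethyltransferase *Amt* at 0.59 (SE 0.0263), with *Dld* at 0.27. All 3 genes of serine synthesis were higher, *Phgdh* by 0.44 (SE 0.0218), *Psph* by 0.18 and *Psat1* by 0.15. *Gldc* held 324 ± 13.2 CPM in input (SD, n = 6) and 496 ± 19.2 CPM in IP (n = 12).

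On the list of methionine cycle and transsulfuration, 5 of 8 tested genes were higher in IP and none lower. Among them were cystathionine beta-synthase *Cbs* at 0.45 and the S-adenosylmethionine synthetase *Mat2a* at 0.19, beside the *Ahcy*-like genes *Ahcyl2* at 0.46 and *Ahcyl1* at 0.23. Choline and sarcosine oxidation had 3 of 5 higher and none lower, *Aldh7a1* at 0.46, *Pipox* at 0.31 and *Sardh* at 0.17. Purine synthesis, which spends 10-formyl-tetrahydrofolate in 2 steps, had 4 of 6 higher, among them the enzymes of those steps, *Atic* at 0.37 and *Gart* at 0.30, beside *Pfas* at 0.21, and *Paics* lower at -0.32. The partners of methionine synthase and cobalamin handling had 4 of 7 higher by at most 0.13 (*Tcn2*, *Mmadhc*, *Lmbrd1* and *Mtrr*, which reactivates MTR).

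Of the other folate enzymes, 3 of 6 were lower in IP and none higher, among them thymidylate synthase *Tyms* at -0.34 (SE 0.0472) and *Mthfs* at -0.33. Of folate transport and retention, *Ggh*, which trims the glutamate tail of folates, was lower at -0.39 (SE 0.0254), as was the mitochondrial folate carrier *Slc25a32* at -0.25, while the reduced folate carrier *Slc19a1* at 0.22 and the folylpolyglutamate synthase *Fpgs* at 0.21 were higher.

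With ethanol, 6 of the 46 list genes were higher and 13 lower in IP, with a median of -0.03, and 5 were higher and 11 lower in input, with a median of -0.01. The medians over all genes were 0.005 in IP and -0.0009 in input. Among all genes tested, 11.9% were called higher and 9.48% lower in IP, and 7.21% and 7.78% in input. Among the other folate enzymes 3 of 6 were lower in each fraction and none higher. *Tyms* fell by 0.22 in IP (SE 0.0569, adjusted p = 0.00214) and by 0.27 in input (SE 0.076, adjusted p = 0.00479). Serine synthesis had 2 of 3 genes lower in each, *Psat1* by 0.24 in IP (SE 0.0333) and 0.27 in input (SE 0.0392) and *Phgdh* by 0.15 and 0.17. *Psat1* held 40.2 ± 1.27 CPM in IP control and 33.9 ± 2.02 CPM in IP ethanol (SD, n = 6 each).

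The glycine cleavage genes moved apart, with *Gcsh*, the lipoyl carrier protein, lower by 0.25 in both fractions (adjusted p = 5.28e-10 in IP), *Dld* lower by 0.07 in IP, and *Gldc* higher by 0.09 in IP and 0.07 in input. Purine synthesis had 3 of 6 lower in IP and 2 of 6 in input, with *Adsl* lower by 0.17 and 0.15, *Gart* by 0.14 and 0.10, and *Atic* by 0.09 in IP. Cobalamin handling was the list with more genes higher, 3 of 7 in each fraction and none lower, with the lysosomal transporters *Abcd4* at 0.22 in IP and 0.25 in input and *Lmbrd1* at 0.07 and 0.09, and the carrier *Tcn2* at 0.14 and 0.12. In folate transport, *Fpgs* fell by 0.25 in IP and 0.21 in input, the folate receptor *Folr1*, at only 2.75 ± 0.187 CPM in IP control, by 0.25 in IP, and the proton-coupled transporter *Slc46a1* rose by 0.24 in IP. On the list of methionine cycle and transsulfuration, only the *Ahcy*-like genes *Ahcyl2* and *Ahcyl1* were called. *Ahcyl2* was higher by 0.13 and 0.10 and *Ahcyl1* lower by 0.11 and 0.12 in IP and input. The part of these *Ahcy*-like genes in the cycle was not tested. *Ahcy* itself, at 41.4 ± 1.4 CPM in IP control and 40.7 ± 1.3 CPM in IP ethanol (SD, n = 6 each), was not called in either fraction. Of choline and sarcosine oxidation only *Aldh7a1* was called, lower by 0.07 in input.

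A pair of programs known to govern genes of this pathway was followed beside it. ATF4, the transcription factor of the amino acid response, is known to induce *Mthfd2*, *Shmt2*, *Aldh1l2*, *Psat1* and *Phgdh*. Of 10 other known ATF4 targets, 8 were higher with ethanol in IP and 7 in input and none was lower, with medians of 0.19 and 0.17. The medians over all genes were 0.005 and -0.0009. Among all genes tested, 11.9% were called higher with ethanol and 9.48% lower in IP, and 7.21% and 7.78% in input. The lists of both programs were chosen with earlier results of these data known. *Atf5* was higher by 0.46 and 0.37, *Trib3* by 0.46 and 0.36, *Slc7a11* by 0.30 and 0.19 and *Ddit3* by 0.25 and 0.25 in IP and input. Of the 5 pathway genes just named, *Aldh1l2* was called higher in IP, *Psat1* and *Phgdh* were called lower, and *Mthfd2* and *Shmt2* were not called. Of 14 genes of S phase, the stage of the cell cycle with which thymidylate and purine synthesis is coupled, 13 were lower in each fraction and none higher, with medians of -0.26 in IP and -0.33 in input. *Mcm5* fell by 0.41 and 0.49, *Mcm3* by 0.41 and 0.45, *Ccne2* by 0.38 and 0.47, and *Tk1* by 0.37 and 0.63. How far either program accounts for the changes of the 9 genes was not tested. In IP vs. input, 5 of the 10 ATF4 targets were higher and 3 lower, with *Nupr1* at -0.93, *Ddit3* at -0.56, *Slc7a11* at -0.21 and *Asns* at 0.37. Of the S phase genes 7 were higher and 3 lower, with *Ccne2* at -0.38, *Rrm1* at -0.25, *Mcm5* at 0.22 and *Tk1* at 0.21. Among all genes tested, 25.2% were called higher in IP and 25.8% lower.

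**Figure D5:**
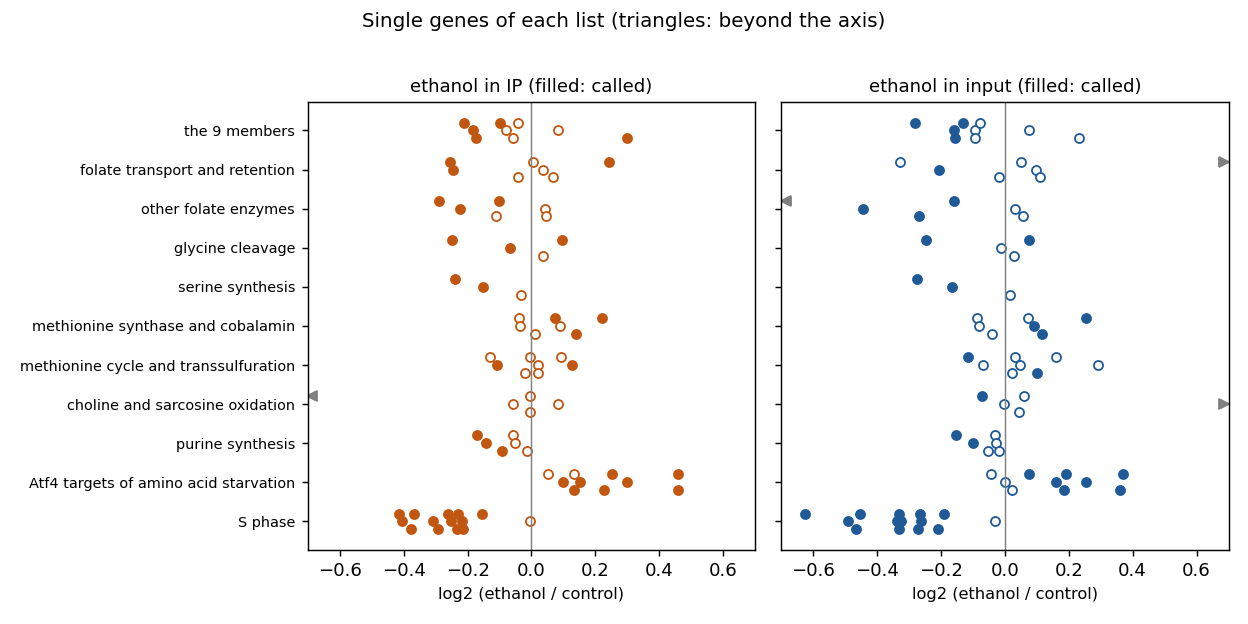
Log2 fold change of ethanol against control for the 9 genes and each gene of the lists, in IP (left) and input (right). Points are genes, filled where called, and the 4 grey triangles are genes without a call that lie beyond the axis. The S phase genes lie left of 0 in both panels, with medians of -0.26 and -0.33, and the ATF4 targets mostly right, with medians of 0.19 and 0.17.

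For *Aldh1l1* and *Mthfd2*, a called gene of each direction in IP vs. input, the genes with the most similar pattern over the 18 libraries were sought among the 11065 genes that averaged 5 CPM or more. Likeness was the root-mean-square difference of log2 CPM, centred on each gene's mean. Nearest to *Aldh1l1* were *Acsbg1*, an acyl-CoA synthetase, at 0.0506, *Plagl1*, a zinc finger protein, at 0.0655 and *Ltbp2*, a matrix protein that binds fibrillin, at 0.0677. Nearest to *Mthfd2* were *Aig1* at 0.0625, *Tspan5*, a tetraspanin, at 0.0678 and *Bgn*, the proteoglycan biglycan, at 0.0692.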

How the data were processed

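Total RNA of input aliquots and TRAP (IP) samples was made into stranded libraries after removal of ribosomal RNA and sequenced as read pairs. The authors trimmed reads with Trimmomatic, aligned them to GRCm38 and counted read pairs per gene with STAR, and deposited raw counts, not normalized and not pooled, for each library and strand, beside 1 table that joins the unstranded counts of the 18 libraries and was used here. Table and single files were checked and had 0 differences. Pairs mapping to several places are not counted.

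Computed here were TMM-scaled CPM, CPM per kb (merged exons of GENCODE M21, GRCm38) and edgeR 4.0.16 quasi-likelihood tests (robust fit, R 4.3.3) over 24495 genes (10 or more read pairs in all), adjusted by Benjamini and Hochberg with a threshold of 0.05. IP vs. input was fitted over 18 libraries with a treatment term, and ethanol within each fraction. The SE is the absolute log2 fold change divided by the square root of F. DESeq2 1.42.0, other scalings, filters, strand-specific counts, blocks, trends of GC content and length and left-out libraries were alternatives. The code was tested on simulated data. Input and IP libraries with 1 number come from the same dish, as the study's methods state, while nothing in the labels links control to ethanol dishes. At 74239854 to 132810705 read pairs, libraries of a group differed beyond sampling noise (a chi-square of 4.06 or more per degree of freedom), so none was counted as a copy. The 9 genes, the gene lists and the tests were chosen with earlier results of these data known. Named list genes are, per list and comparison, up to 4 with the largest absolute log2 fold change among those called, of which a few are not reported here. Promoter sequences come from RefSeq.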

Additional observations from a re-analysis of the deposited data

Results flagged for a closer look

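In a check for single libraries that stand apart within a group of 6, 1 of 18 combinations of gene and IP group was singled out, about as many as chance gives (1 in 20). *Shmt2* in IP ethanol replicate 1 stood at 33.66 CPM, while the other 5 libraries of the group held 36.95 to 37.89 CPM, so its gap to the nearest made up 0.778 of the range of the group. Without that library the ethanol change of *Shmt2* in IP was -0.02 (edgeR, adjusted p = 0.772), not called with or without it. The same library had the lowest *Aldh1l1* level of the IP ethanol group, 342 CPM.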

How the results depend on the processing

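Of 839 values for the 9 genes under the alternatives, 815 kept their side of the threshold, 16 lost a call and 8 gained one, the last all for *Aldh1l1* with ethanol in IP. The sign changed in 26 values, none of them called. They were 22 interaction values and 4 others, *Shmt1* in IP vs. input with total counts (-0.00) and with counts of the annotated strand (-0.01), and *Mthfd2* (-0.01) and *Shmt2* (0.01) with ethanol in IP replicates 4 to 6 alone. A further 7 interaction values had no adjusted p from DESeq2. Tested against a fold change of 1.2, calls fell to 5 of the 9 genes, 9 list genes and 4936 of all genes in IP vs. input, to 0, 0 and 95 for ethanol in IP, and to 0, 0 and 55 for ethanol in input. For ethanol, IP replicates 4 to 6 alone gave 3 of the 9 genes and 3714 of all 24495 genes, in a fit with fewer libraries. Replicates 1 to 3 alone, also with fewer libraries, gave 3 of the 9 genes, 10 list genes and 2995 of all genes. Leaving out 1 library at a time gave 8 to 8 of the 9 genes, 29 to 32 list genes and 12069 to 12503 of all genes in IP vs. input, 5 to 6, 17 to 20 and 4616 to 5244 for ethanol in IP, and 4 to 4, 13 to 14 and 2861 to 3164 for ethanol in input. For the interaction of ethanol and fraction, the count over all genes was 0 to 1 (1 without IP ethanol replicate 3), 4 with DESeq2, 102 with the dish as replicate block and 39 with that block and trends of GC content and length removed, and the cause was not tested. Same-dish libraries deviated together only weakly (correlations 0.034 to 0.206). With the dish as replicate block, 11659 genes were called in IP vs. input, with the same calls for the 9 genes. The replicate number as replicate block, where no label links control and ethanol dishes (correlations -0.149 to 0.399 in IP), gave 5782 calls with ethanol in IP and 3829 in input, and changed no call of the 9 genes other than that of *Aldh1l1*. Scaling by total counts put 40.8% of the IP vs. input calls on the higher side, against 49.4% with TMM, and left the calls of the 9 genes as they were. Levels per length rose 1.03 to 1.67 times with the longest transcript, and 33 of 36 moved beyond the SD, while counts of the annotated strand gave 0.808 to 1.29 times the level, with 25 of 36 moved. Depth limits *Aldh1l2* most, with 225 to 623 read pairs per library.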

Other observations

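Counts of the annotated strand changed the level of 3 genes more than that of the others. *Aldh1l1* had 1.13 to 1.17 times its unstranded count and *Aldh1l2* 1.19 to 1.46 times. *Shmt1* had 0.812 to 0.943 times its unstranded count. On this strand *Aldh1l2* stood at 4.38 ± 0.256 CPM in IP control and 5.19 ± 0.398 CPM in IP ethanol (SD, n = 6 each), with no overlap (highest control 4.62, lowest ethanol 4.67), and *Shmt1* at 8.59 ± 0.0443 CPM in input control and 6.98 ± 0.203 CPM in input ethanol (n = 3 each).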
